A study of Arabidopsis thaliana with 6 samples.

Results

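All 6 genes examined here, which use PAPS, carry it or clear its by-product PAP, had higher transcript signals in rosettes of an Arabidopsis thaliana double mutant in the APS kinases APK1 and APK2 than in wild-type Col-0 rosettes. The genes are the desulfoglucosinolate sulfotransferases SOT16, SOT17 and SOT18 (PAPS users), the carrier TAAC, and the phosphatases HL and SAL1. They were chosen by name and function, with earlier results of these data known. Each was read through 1 ATH1 probe set, and they make up 6 of the 22810 probe sets in the table. The probe sets 251106_at (TAAC) and 248155_at (HL) are named in the platform's probe table. The names of 260387_at (SOT16), 255773_at (SOT17), 260385_at (SOT18) and 247313_at (SAL1) came with the member list, because that table gives no gene for them. All 6 probe sets carry the plain suffix that marks probes designed against a single transcript. Probe sequences were not checked, so binding to related transcripts, such as among the SOT genes, was not tested.

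The double mutant was a cross of the insertion lines salk_053427 and salk_093072, labelled as a double mutant of APK1 and APK2, and the control was the accession Col-0, with 3 arrays each. The labels do not say which insertion lies in which gene, and both genotypes were otherwise grown alike: 3 days of cold in water, then soil under 10 h light and 14 h dark periods (22 °C, 60% humidity). Each array held RNA from a pool of 10 whole rosettes cut at 35 days, before bolting and 4 h into the light period. The comparison asks how these transcripts respond to the loss of the APS kinases APK1 and APK2, which make PAPS.

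Glucosinolates are sulfur-rich defence compounds of the cabbage order. In the last step of their core synthesis a sulfotransferase moves sulfate from PAPS onto a desulfoglucosinolate and leaves PAP behind. PAPS made in the plastid has to be exported to reach these cytosolic enzymes, and PAP is broken down to AMP by phosphatases such as SAL1. PAP that builds up in plants lacking SAL1 is known to inhibit XRN exoribonucleases and to act as a stress signal.

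Values are MAS5 signals, linear brightness units per probe set after the authors had scaled every array to the same trimmed mean. Array medians lay between 32.6 and 34.5 in the double mutant and between 32.5 and 33.2 in Col-0, and no pair of arrays held identical values. Over tested probe sets, log2 signals correlated at 0.974 to 0.983 within the double mutant, at 0.981 to 0.986 within Col-0 and at 0.95 to 0.969 between genotypes. The probe table pairs none of the 4 APS kinase genes with a probe set, so the genotype labels were not checked against the disrupted genes. Of the leaf markers, RCA, the activase of Rubisco, was bright in both genotypes, with 6277 ± 729 in the double mutant and 6216 ± 916 in Col-0 (SD, n = 3 each). The leaf marker SBPASE was lower in the double mutant (log2 change -0.33). The root hair genes EXPA7 and EXPA18 stayed under the 40th percentile of signal on all 6 arrays. The root marker PYK10 lay above it on all 6 and was higher in the double mutant (1.62-fold). No probe set was named for any of the 4 flower markers looked up.

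SOT17, which sulfates mainly methionine-derived desulfoglucosinolates, showed the largest change of the 6. Its signals were 963.8, 1026 and 1064 in the double mutant, against 217.5, 282.9 and 212.7 in Col-0. The lowest mutant array was 3.41 times the highest Col-0 array, so the genotypes were far apart. The fitted rise was 4.32-fold (95% interval 3.67 to 5.07, n = 3 per genotype; limma, adjusted p = 5.1e-08).

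SOT18 also acts mainly on methionine-derived substrates. Its signals were 1299, 1437 and 1313 in the double mutant, against 532.0, 657.6 and 558.2 in Col-0. The genotypes did not overlap, and replicate 2 was the brightest array in each of them. SOT18 rose 2.32-fold (95% interval 2.03 to 2.67; limma, adjusted p = 1.8e-06).

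SOT16 prefers the indolic substrates derived from tryptophan. It had 1302, 1087 and 1506 in the double mutant, against 620.8, 650.8 and 582.7 in Col-0. The mutant arrays were more spread than for the other members, with a coefficient of variation of 16.1% in the double mutant and 5.53% in Col-0, but every mutant array exceeded every Col-0 array. The rise was 2.08-fold (95% interval 1.78 to 2.45; limma, adjusted p = 2.62e-05). In the gene table SOT16 and SOT18 are direct neighbours, with no protein-coding gene between them, and SOT17 does not adjoin them.

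The carrier TAAC sits in plastid membranes and exchanges adenine nucleotides, PAPS among them. It gave 181.9, 203.9 and 239.5 in the double mutant, against 78.93, 88.63 and 80.25 in Col-0. It was the dimmest of the 6 probe sets, yet its lowest mutant array stood 2.05 times above its highest Col-0 array. The fold change was 2.51 (95% interval 2.1 to 3.0; limma, adjusted p = 9.28e-06).

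Both PAP phosphatases rose. SAL1, the enzyme mutated in fiery1 plants, had 699.2, 754.0 and 787.8 in the double mutant, against 340.8, 357.9 and 384.5 in Col-0. Its spread was small in each genotype, 5.99% of the mean in the double mutant and 6.10% in Col-0, and the genotypes did not overlap. It rose 2.07-fold (95% interval 1.82 to 2.35; limma, adjusted p = 3.06e-06). HL, a relative of the yeast PAP phosphatase HAL2, gave 318.5, 377.5 and 369.5 in the double mutant, against 231.2, 212.6 and 209.3 in Col-0. HL had the smallest change of the members, 1.63-fold (95% interval 1.41 to 1.88; limma, adjusted p = 3.18e-04), and its closest arrays of the 2 genotypes still differed 1.38-fold.

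**Figure D1:**
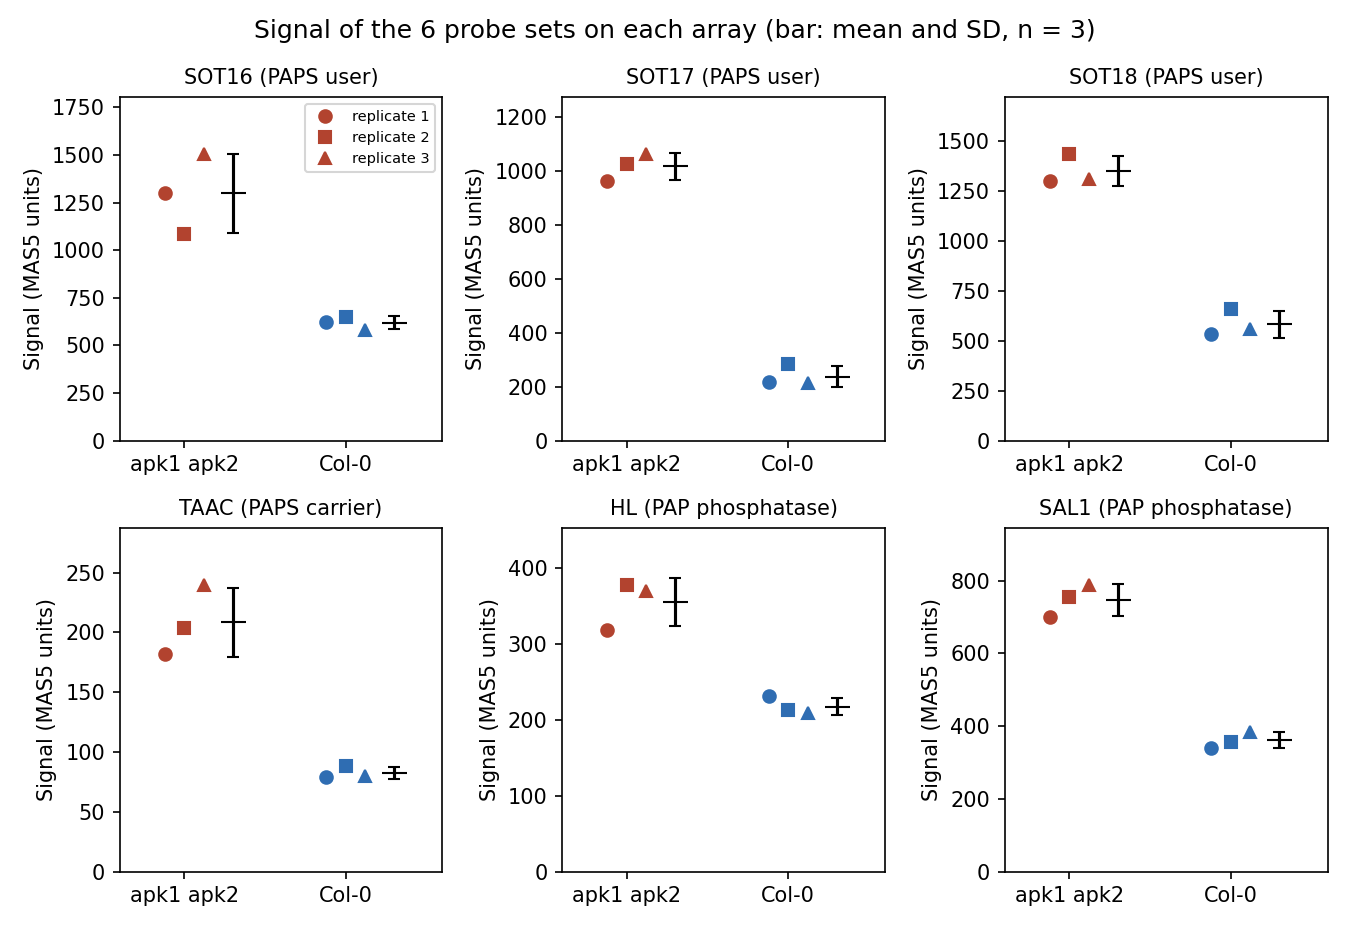
Signal in MAS5 units (vertical axis, from 0) of each of the 6 probe sets on the 3 apk1 apk2 arrays (red, left) and the 3 Col-0 arrays (blue, right), with a marker shape per replicate number and the mean and SD in black. In every panel all mutant arrays lie above all Col-0 arrays, by the widest margin for SOT17 and the narrowest for HL.

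The 6 members were all tested, all above the 40th percentile on all 6 arrays, and all called higher in the double mutant at an adjusted p of 0.05. Over the 13848 probe sets tested, 5.79% were called higher and 5.55% lower. Calls were more frequent among bright probe sets: of 4887 at least as bright as TAAC on average, 8.33% were called higher. In all 6 members every mutant array lay above every Col-0 array, a pattern found in 13% of tested probe sets. The median log2 change of the members was 1.14, beside -0.02 over all tested probe sets. Ranked by increase among the 13848, SOT17 was at place 52, TAAC at 153, SOT18 at 192, SOT16 at 246, SAL1 at 251 and HL at 486. In whole rosettes, more cells that express a gene and more RNA per cell cannot be told apart.

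**Figure D2:**
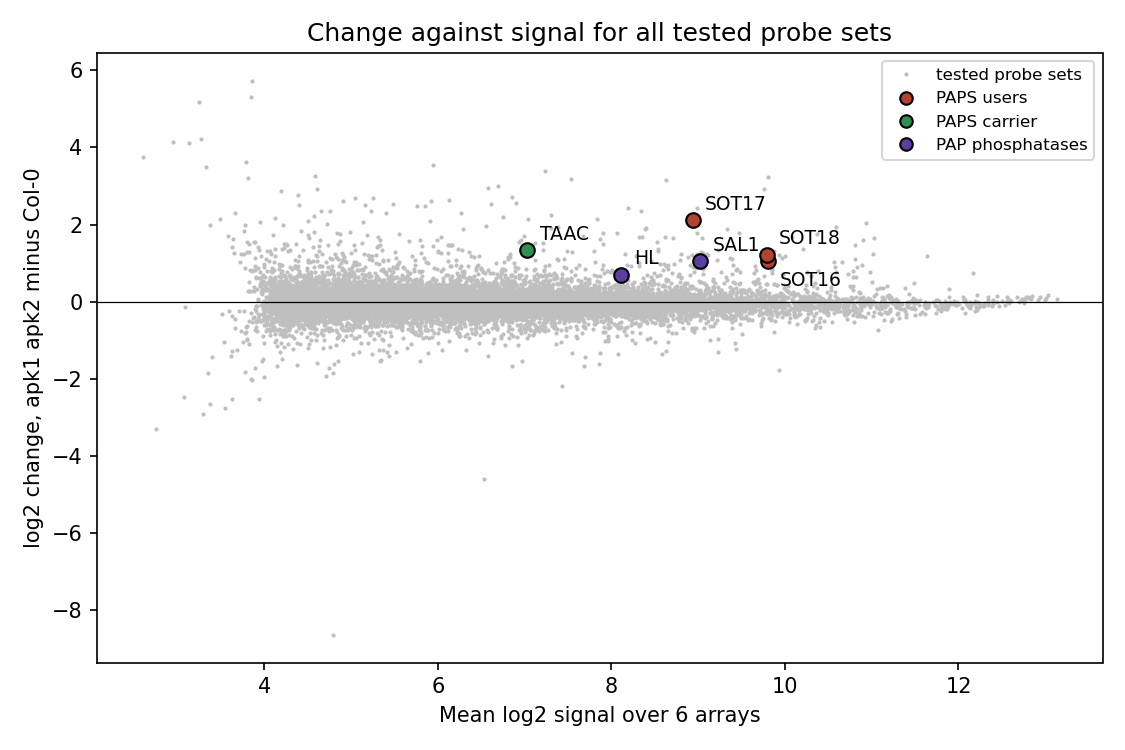
log2 change (apk1 apk2 minus Col-0, vertical axis) against the mean log2 signal over 6 arrays (horizontal axis) for the 13848 tested probe sets in grey, with the PAPS users in red, the PAPS carrier in green and the PAP phosphatases in purple. The 6 members lie above the bulk of probe sets of like brightness, from HL at 0.70 to SOT17 at 2.11.

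The log2 changes of the sulfotransferases were compared in pairs, and no pair passed the test. The fitted log2 change of SOT17 was 1.05 above that of SOT16, which makes the SOT17 fold 2.07 times the SOT16 fold. The SD over arrays of the difference in log2 signal between these genes was 0.22 in the double mutant and 0.16 in Col-0, and its values in the genotypes did not overlap. For SOT18 minus SOT17 the difference in log2 change was -0.89 (SD 0.09 in the double mutant and 0.09 in Col-0), again without overlap. For SOT18 minus SOT16 it was 0.16 (SD 0.31 in the double mutant and 0.12 in Col-0), the genotypes overlapped, and without mutant replicate 2 it was -0.010. The two-sided exact permutation test over arrays gave p = 0.1 for the comparisons with SOT17 and p = 0.5 for SOT18 with SOT16. With 3 arrays against 3 the smallest possible value is 0.1, and over the 6 pairs of members compared the adjusted p was 0.12 for the pairs with SOT17 and 0.5 for SOT18 with SOT16.

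The same test was used for the pairs among the carrier and the phosphatases, and it could not reach 0.05 there either. The difference in log2 change was -0.35 for HL minus SAL1 (SD 0.07 in the double mutant and 0.16 in Col-0). It was 0.62 for TAAC minus HL (SD 0.13 in the double mutant and 0.14 in Col-0) and 0.28 for TAAC minus SAL1 (SD 0.12 in each genotype). In these 3 pairs the genotypes did not overlap, and each had the exact permutation p = 0.1, the smallest possible, and an adjusted p of 0.12.

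The mutant arrays differed in how far the members moved. Replicate 3 was the brightest mutant array for 4 members (SOT16, SOT17, TAAC and SAL1) and replicate 2 for the other 2 (SOT18 and HL). Replicate 1 was the dimmest mutant array for 5 members, and replicate 2 for SOT16. Relative to its Col-0 mean on the log2 scale, TAAC stood at 1.14, 1.31 and 1.54 in mutant replicates 1, 2 and 3, and SOT16 at 1.08, 0.82 and 1.29. SOT17 varied little, at 2.03, 2.12 and 2.17.

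**Figure D3:**
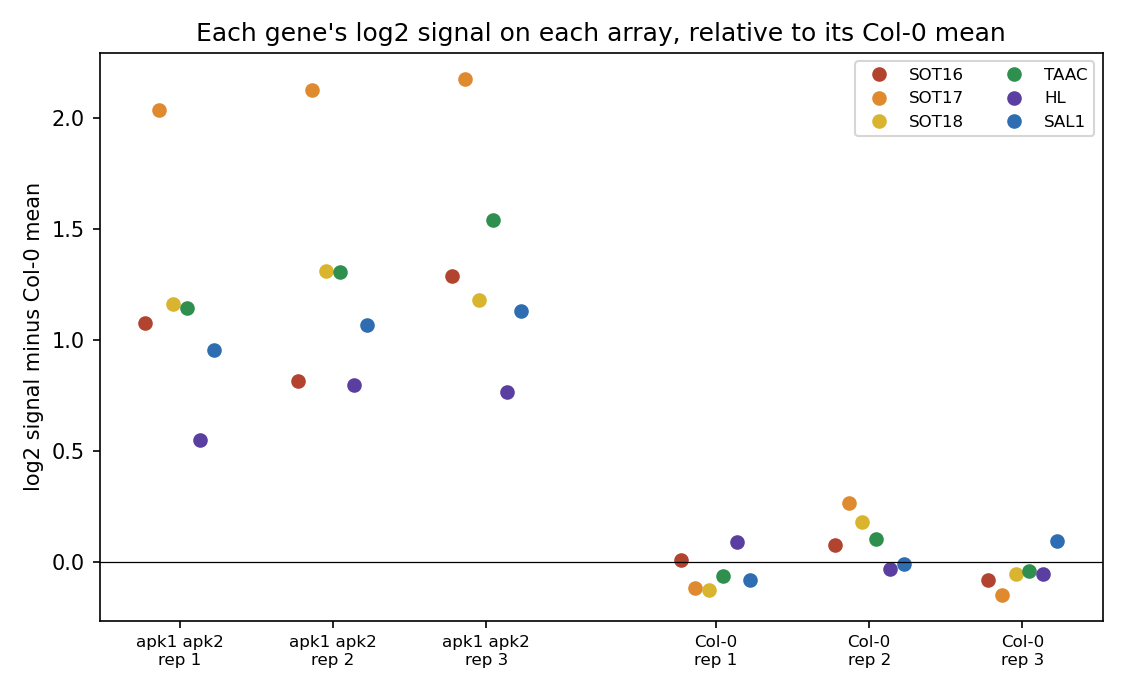
log2 signal of each member on each array minus that gene's Col-0 mean (vertical axis), with the 3 apk1 apk2 arrays on the left and the 3 Col-0 arrays on the right, and a colour per gene. SOT17 stands apart at 2.03 to 2.17 in the mutant arrays, HL is lowest there at 0.55 to 0.80, and the Col-0 arrays scatter around 0.

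The other genes of PAP breakdown were read from a list of 7 genes for PAPS and PAP handling, TAAC, HL and SAL1 included, all of which were tested. Of the 7, 5 were called higher (5.79% of all tested probe sets) and 2 were not called. The 5 include the members TAAC, HL and SAL1. Of the 4 genes that are not members, 2 were called higher, SAL2 and AT5G09290. The latter passed the filter only through its mutant arrays. The median log2 change was 1.05 for the 7 and 0.98 for the 4 (all tested probe sets, -0.02). SAL2 is a homologue of SAL1 and lies close to it in the genome, with only AT5G63990 between them. SAL2 had 104.8, 104.5 and 161.4 in the double mutant, against 52.36, 36.07 and 54.36 in Col-0. It rose 2.58-fold (95% interval 1.93 to 3.46; limma, adjusted p = 4.71e-04) without overlap between genotypes.

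AT5G09290, a further locus of the SAL1-like family, had 30.49, 48.20 and 39.47 in the double mutant, against 14.13, 14.66 and 14.43 in Col-0. All Col-0 arrays lay under the 40th percentile of their signal, used here as the limit for a dim probe set, so its rise is given as at least 2.25-fold (limma, adjusted p = 0.0018). AT5G63990, the family member between SAL1 and SAL2, was not called. It had 33.77, 27.74 and 27.69 in the double mutant, against 28.72, 21.23 and 12.26 in Col-0, with overlap between genotypes (log2 change 0.60, 95% interval -0.05 to 1.24; limma, adjusted p = 0.249). In total 3 of the 4 SAL1-like genes were called higher, the member SAL1 among them, beside 5.79% of all tested probe sets. AT5G09290 was tested only because its 3 mutant arrays passed the limit, so whether it is tested depends on the filter. With no filter on low signal it stayed called (limma, adjusted p = 0.00647). With a stricter filter, at the array median of signal, the dim AT5G09290 and AT5G63990 were not tested. Whether probes of these related genes bind each other's transcripts was not tested.

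AT3G51870, a carrier related to TAAC and known to transport PAPS and PAP, was not called. Its signals were 108.4, 105.7 and 103.9 in the double mutant, against 99.33, 141.9 and 124.3 in Col-0. The genotypes overlapped, and the log2 change was -0.19 (95% interval -0.47 to 0.10; limma, adjusted p = 0.442). For TAAC the interval ran from 1.07 to 1.59, and the difference between these carriers was not tested.

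Outside the glucosinolate branch, neither of the 2 tested sulfotransferases was called by limma, and neither had an unadjusted p under 0.05. The list held 20 sulfotransferase genes, of which 5 were tested: SOT16, SOT17 and SOT18, called higher, and AT2G03750 and AT3G50620, not called. AT2G03750 had 412.4, 474.4 and 354.9 in the double mutant, against 429.3, 442.4 and 388.2 in Col-0, which overlap (fold 0.98, 95% interval 0.84 to 1.15; limma, adjusted p = 0.91). AT3G50620 was dim and also overlapped, with 21.27 ± 2.71 in the double mutant and 22.09 ± 2.59 in Col-0 (SD, n = 3; limma, adjusted p = 0.926). A further 5 genes of the list had a named probe set that stayed under the limit on all 6 arrays, and the rest had none named.

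Of the sulfate assimilation genes, 3 of 8 listed were tested, of which 2 were called higher and 1 lower. The 2 tested genes of ATP sulfurylase, the enzyme that makes the substrate of APS kinase, went in opposite directions, and the other ATP sulfurylase genes were not tested. APS3 had 452.9 ± 29.7 in the double mutant and 226.8 ± 3.72 in Col-0, a 1.99-fold rise (limma, adjusted p = 5.82e-06). APS4 had 105.2 ± 16.1 in the double mutant and 159.2 ± 11.7 in Col-0 and fell, with a log2 change of -0.61 (limma, adjusted p = 0.00644). The sulfite reductase SIR rose 1.39-fold (limma, adjusted p = 0.0015).

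Of 26 listed genes that act before the sulfotransferases or on the side chain of glucosinolates, 5 had a named probe set and were tested. The other 21 had none named. All 5 tested genes were called higher, beside 5.79% of all tested probe sets, with a median log2 change of 1.29. The median of SOT16, SOT17 and SOT18 was 1.22 and the difference was not tested. The changes ran from 1.02 for the dioxygenase gene AT2G25450 and 1.18 for the glucosyltransferase gene AT2G31790 to 2.05 for the aminotransferase gene BCAT4. The rise of SOT17, 2.11, was close in size to that of BCAT4, whose 95% interval ran from 1.88 to 2.21. UGT74B1, whose glucosyltransferase makes the desulfoglucosinolates that SOT enzymes use, changed by 1.29. The glutathione transferase GSTU20 changed by 1.61.

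**Figure D4:**
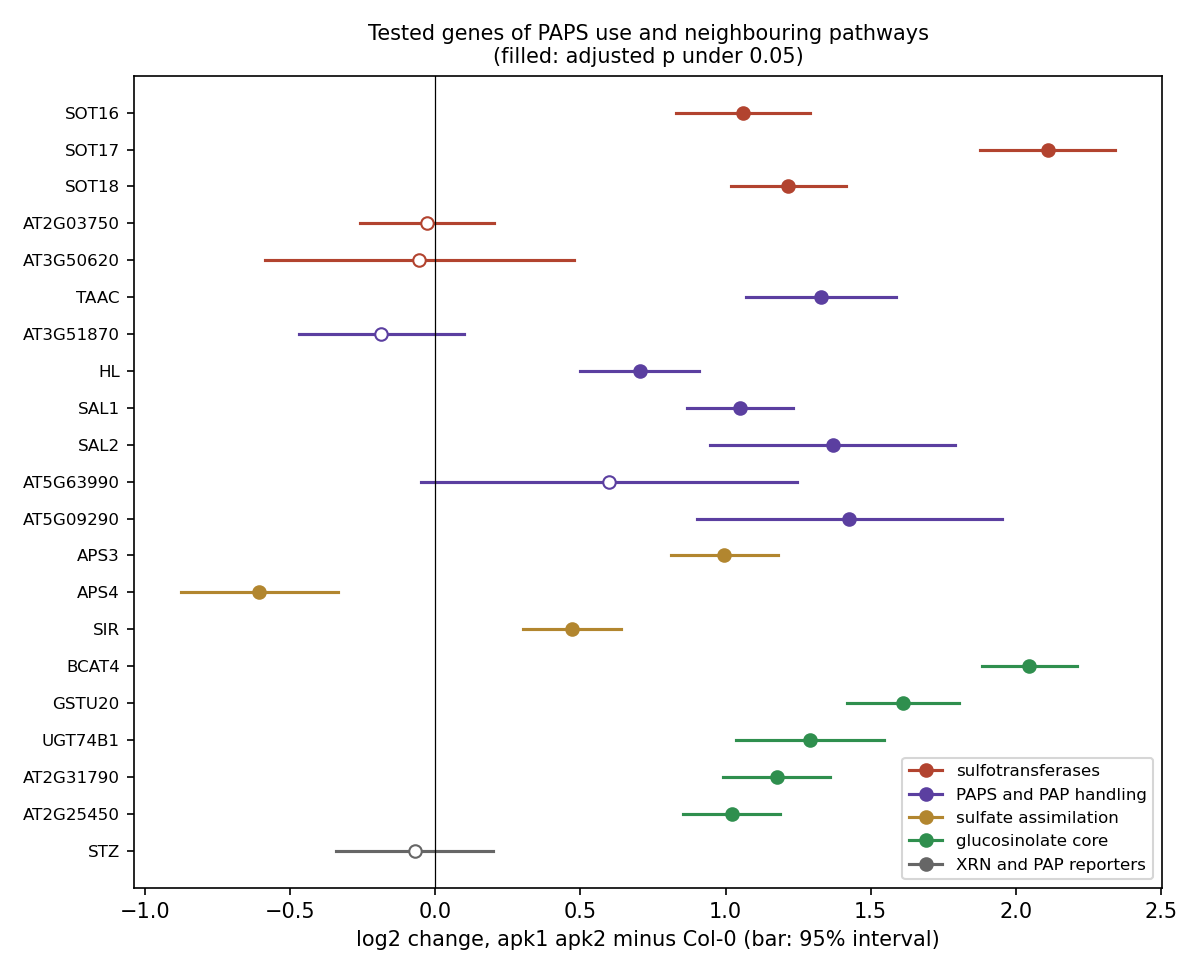
log2 change (apk1 apk2 minus Col-0, horizontal axis) with its 95% interval for the tested genes of 5 lists, coloured by list, with filled points for an adjusted p under 0.05. SOT16, SOT17, SOT18, TAAC, HL, SAL1, SAL2, AT5G09290, APS3, SIR and all 5 tested glucosinolate core genes are to the right of 0. APS4 is to the left of 0 (interval -0.88 to -0.34). AT3G51870, AT5G63990, AT2G03750, AT3G50620 and STZ have intervals that include 0.

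From a list of 9 XRN exoribonucleases and transcripts known to rise in sal1 mutants, 1 was tested. STZ, a zinc finger factor also called ZAT10, had 97.21, 118.1 and 132.2 in the double mutant, against 126.9, 113.2 and 122.7 in Col-0. The genotypes overlapped (log2 change -0.07, 95% interval -0.34 to 0.20; limma, adjusted p = 0.79). The other 8, the XRN genes among them, were not analysed here.

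Signals of other markers moved with genotype too. PYK10, a beta-glucosidase abundant in roots, had 433.6 ± 35.6 in the double mutant and 268.5 ± 40.7 in Col-0 and rose (fold 1.62; limma, adjusted p = 0.00107). Of 5 root markers 3 had a probe set, and their summed signal was 405.2 to 478.2 in the double mutant and 251.8 to 328.2 in Col-0, nearly all of it PYK10. Of 12 leaf markers 3 were tested and 1 was called, the Calvin cycle gene SBPASE, lower in the double mutant with a log2 change of -0.33 (limma, adjusted p = 0.0245). The summed leaf signal was 10550 to 12920 in the double mutant and 11780 to 14280 in Col-0. Control probe sets for actin and GAPDH differed by log2 -0.17 to 0.26. The part of these shifts in the members' changes was not tested.

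Genes with the most similar profile over the 6 arrays were looked up for each member, which with 3 arrays per genotype mostly ranks genes by a shared genotype difference. Between 110 and 166 named probe sets had a Pearson correlation above 0.95 with a given member. The closest to SOT17 were AT1G70810 and the glutaredoxin gene GRXC2 (r = 0.999 each). Those closest to SOT18 were the DJ-1 family gene YLS5 (r = 0.999) and AT5G44720 (r = 0.997). SOT16 was nearest to AT5G45410 (r = 0.998) and AT5G04750 (r = 0.990). For TAAC they were AT3G18280 (r = 0.999) and AT1G43910 (r = 0.998), for HL AT1G13990 (r = 0.997) and cwINV6 (r = 0.996), and for SAL1 AT3G18250 (r = 0.999) and the stromal ascorbate peroxidase gene SAPX (r = 0.997). Among themselves the members correlated at 0.929 (SOT16 with HL) to 0.996 (SOT17 with SOT18). The points share the same arrays and scaling.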

How the data were processed

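RNA of 3 double mutant and 3 Col-0 pools was hybridised to Affymetrix ATH1 arrays after 3′ labelling, per the labels' protocols. The deposited intensities are linear signals per probe set. MAS5 and GCOS are named, with no versions, in the submitters' processing notes. Every array in the deposited table has a mean of 100.01 after trimming 2% from each end, so overall changes in transcript amount would not be seen. Their number, 3 per genotype, limits the precision.

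Signals were taken to log2 with no offset. Array medians of log2 differed by 0.0836, so no further normalization was applied. After leaving out 64 control probe sets, a probe set was tested if it reached its array's 40th percentile (16.9 to 19.4) on at least 3 of 6 arrays, leaving 13848. limma 3.58.1 (R 4.3.3) was fitted to all of them with genotype as the factor and a variance trend, two-sided, with Benjamini-Hochberg adjustment and a threshold of 0.05. Intervals come from the same fit, unadjusted. The fit was tested on simulated data. Where all arrays of a genotype were dim, the fold is a bound against that percentile. Sequences are not shown.

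Genes were named through the platform's probe table and a gene table of TAIR10.1: 13513 probe sets named 1 gene, 503 several and 8730 none. The 4 member probe sets without a name there keep the names of the member list. Named genes are the members, all tested list genes and markers, and the 2 most correlated named genes per member. Members and lists were chosen with earlier results of these data known. Alternatives were no variance trend, a robust prior, quantile normalization, median centring, other filters, an offset of 16, a replicate block and each array left out.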

Additional observations from a re-analysis of the deposited data

How the results depend on the processing

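All 6 members kept their direction and stayed past the threshold under all 14 alternatives, with adjusted p-values of at most 0.0121 (HL). Log2 changes ranged from 0.95 to 1.18 for SOT16, 2.04 to 2.24 for SOT17, 1.15 to 1.31 for SOT18, 1.18 to 1.42 for TAAC, 0.66 to 0.78 for HL and 1.01 to 1.1 for SAL1. The differences between members kept their sign under quantile normalization and the offset of 16, and moved by less than 1 SD (pooled over both genotypes) when an array was left out; that of SOT18 minus SOT16, 0.16 with all arrays, was -0.010 without apk1 apk2 replicate 2, and no other changed sign. With the filter at the array median, AT5G09290 was no longer tested and 4 in place of 5 genes for PAPS and PAP handling were called higher. The count of probe sets called, 1571 (802 higher, 769 lower), was 880 (507 and 373) without a variance trend and 811 at an adjusted p under 0.01, which is lower by construction; the cause of the other drop was not tested. Leaving out 1 array gave 1029 to 1585 calls, 526 to 791 higher and 444 to 794 lower. Same-numbered arrays of the 2 genotypes had correlated deviations of 0.0824, 0.0772 and 0.110, each the highest for its number, and the labels give no shared batch. With the replicate block 1789 probe sets were called and all 6 members remained called. Among uncalled genes, leaving out 1 array moved the log2 change of AT2G03750 to between -0.13 and 0.077, that of AT3G50620 to between -0.16 and 0.024 and that of STZ to between -0.17 and 0.049; each reversed to above 0 without 1 mutant array, and those of AT2G03750 and AT3G50620 also without Col-0 replicate 2. That of AT3G51870 lay between -0.33 and -0.068. The spread of dim probe sets limits genes such as AT5G63990, whose log2 change, 0.60 with an SE of 0.30, was 0.26 without Col-0 replicate 3 and 0.88 without Col-0 replicate 1.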
